A study of Homo sapiens with 9 samples.

Results

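NB4, a line derived from an acute promyelocytic leukaemia, was compared with U937, a monocytic line, on 6 of the 9 arrays of a study of histone deacetylase (HDAC) inhibitors in leukaemia lines. Each line had 3 arrays, 1 from untreated cells, 1 from cells given MS-275 (entinostat, a benzamide) and 1 from cells given SAHA (vorinostat, a hydroxamic acid). The arrays were chosen by their labelled line and set against each other by treatment, and the question was which line differences held under all 3 treatments. Both inhibitors were used at 5 µM for 6 h and were dissolved in DMSO. The labels do not say whether untreated cells received the solvent. All cells grew in RPMI medium with foetal serum and the same antibiotics, and the labels call every line an AML line. The other 3 arrays came from K562, an erythroleukaemia line under the same treatments, and entered the fit only to add to the estimate of the spread. Each kind of line was represented by 1 line, so lineage and the peculiarities of NB4 and U937 cannot be told apart. No label says that the arrays of a line came from separate cultures. The arrays of a line were taken as its replicates after the treatment effect was removed. No line had a repeated array under the same treatment. The spread behind the p-values is therefore how unequally the 3 lines, K562 included, changed with treatment, mixed with noise between arrays. It is not a measured spread between repeat cultures of a line. The labels record no slide or date, so no batch could be tested.

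Promyelocytes are the neutrophil precursors that fill azurophil granules with myeloperoxidase and a family of serine proteases, and their leukaemia is known for the PML-RARA fusion, for retinoid-induced maturation and for bleeding. Monocytes take up particles through scavenger and Fc receptors, degrade them in lysosomes and present peptides on MHC class II molecules, whose genes are switched on by the coactivator CIITA. The genes of azurophil granules are transcribed at the promyelocyte stage and decline as either granulocytes or monocytes mature.

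Between 11842 and 12341 of the 22177 probes were detected on the NB4 arrays, and between 12277 and 12705 on the U937 arrays, a probe being detected where its detection p-value against negative controls was under 0.05. The arrays correlated with each other at 0.937 to 0.959 within NB4, at 0.944 to 0.964 within U937 and at 0.806 to 0.877 between the lines. The precision of every value is limited by the number of arrays. Marker genes of each lineage were read to check the line names. Of the 5 markers of the azurophil granule, 4 were detected on all 3 NB4 arrays and 4 on all 3 U937 arrays, and the missing ones differed, since ELANE was detected on 2 NB4 arrays and MPO on no U937 array. The summed normalized intensity of the 5 was 40600 to 44300 in NB4 and 69700 to 72900 in U937. These markers therefore did not set the promyelocytic line apart as a group. Among monocyte markers with a probe, CD68, FCN1 and CSF1R were detected on every array of both lines. CD14, the defining surface marker of mature monocytes, was detected on 0 NB4 arrays and on 2 U937 arrays, at a mean log2 intensity of 4.91 in NB4 and 5.55 in U937. VCAN was detected on 0 arrays of either line, and CD163 on 1 NB4 array and 0 U937 arrays. The summed intensity of the 6 monocyte markers with a probe was 1200 to 3160 in NB4 and 3080 to 7220 in U937, so the ranges overlapped. The name monocytic thus rested on partial marker support in U937.

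A total of 5038 of 10446 genes tested (48.2%) differed between NB4 and U937 in the limma fit at an adjusted p under 0.05. Of these, 2642 (25.3% of genes tested) were higher and 2396 (22.9%) were lower in NB4. The difference held under all 3 treatments, meaning an adjusted p under 0.05 and a difference of at least 1 on the log2 scale in the same direction in each of the 3 pairs of arrays, for 1609 genes (15.4%). Of the genes that held, 727 (6.96%) were higher and 882 (8.44%) were lower in NB4. For 156 of those higher in NB4 the gene was detected on no U937 array, and for 170 of those lower it was detected on no NB4 array. The median difference over all genes was 0.06, the median standard error 0.17, and 90% of genes lay between -1.87 and 1.55. Across genes the difference in untreated cells correlated with that under MS-275 at 0.900 and with that under SAHA at 0.874, over 10446 genes that share their arrays. Genes just inside the limit were CMC2, with a smallest pair difference of 1.0001, and RAB18, with 1.0012 in the lower direction. Just outside lay THRA at 0.9982 (by its brightest probe) and PPT1 at 0.9986 in the lower direction. Without a treatment term 2775 genes passed the test. The number that held was 1049 without background correction and 1027 with only the probes detected on all 6 arrays.

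**Figure D1:**
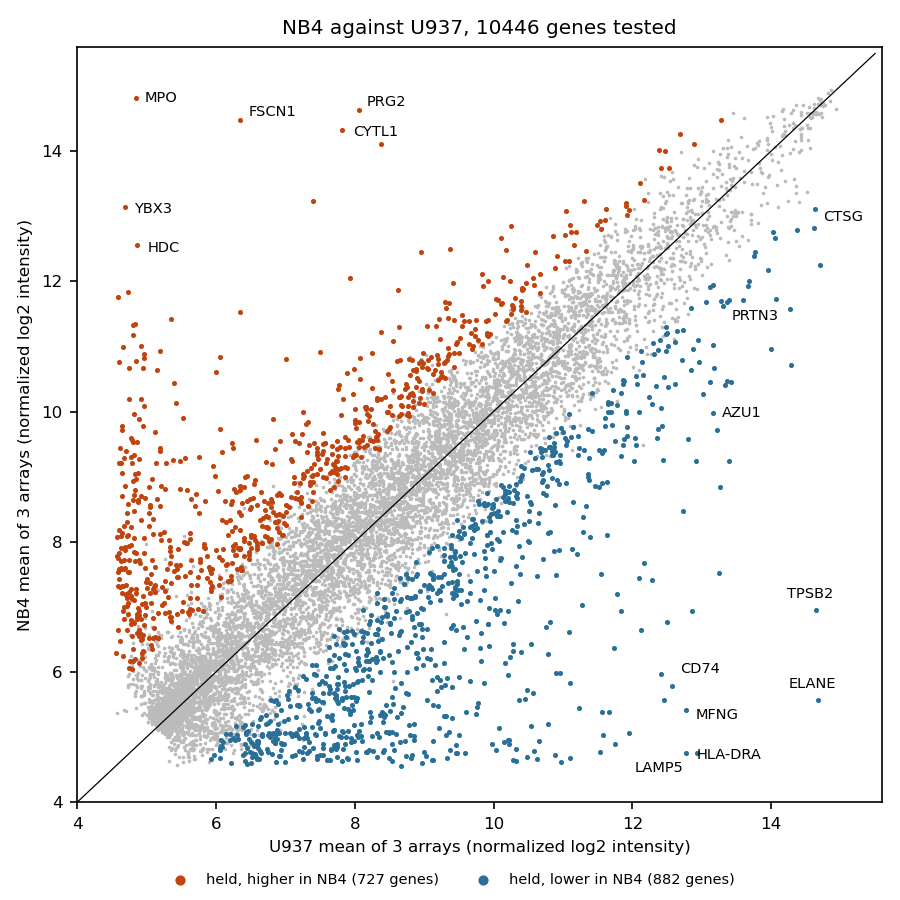
Mean normalized log2 intensity over 3 arrays in NB4 (vertical axis) against U937 (horizontal axis), 1 point per gene tested, with the 727 genes that held higher in NB4 and the 882 that held lower in colour. MPO and ELANE lie at opposite corners, each near the detection limit in 1 line.

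The gene with the largest rise in NB4 was MPO, the peroxidase of azurophil granules. Its log2 intensities in untreated, MS-275 and SAHA cells, the order used throughout, were 14.80, 14.69 and 14.98 in NB4, against 4.84, 4.90 and 4.82 in U937. Every U937 array was below detection, so the difference of 9.97 ± 0.13 (SE, limma adjusted p = 6.978e-08) gives a bound, and MPO was at least 793-fold higher in NB4. Such bounds set the mean of the higher line against the mean, over the other line's arrays, of the lowest log2 intensity among detected probes, or of the gene's own value where that was higher. Where a gene was detected on only some arrays of the lower line, the difference rests in part on values at background, and the number of arrays is given. YBX3, a cold-shock domain protein that binds DNA and RNA, was at least 247-fold higher. FSCN1, the actin-bundling protein fascin, was 280.5-fold higher, with 14.51, 14.30 and 14.64 in NB4 against 6.86, 6.43 and 5.77 in U937. HDC, which makes histamine, was at least 164-fold higher and had 12.75, 12.78 and 12.13 in NB4, against 4.85, 4.95 and 4.80 in U937. The carbonic anhydrase CA2 was at least 94.8-fold higher, and the extracellular matrix protein COCH at least 100.0-fold higher. In none of these genes did the arrays of the lines overlap.

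Others among the 15 genes with the largest rise came from unrelated families. PRG2, the major basic protein of eosinophil granules, had 14.61, 14.67 and 14.60 in NB4, against 7.96, 8.43 and 7.78 in U937, a difference of 6.57 ± 0.29 (SE; adjusted p = 5.511e-06). The homeobox gene RHOXF2, on the X chromosome, was at least 70.0-fold higher in NB4. OLIG2, a basic helix-loop-helix factor of the oligodendrocyte lineage, was at least 47.4-fold higher, at 10.60, 10.73 and 10.95 in NB4 against 4.58, 4.63 and 4.61 in U937. LAPTM4B, a lysosomal membrane protein, was at least 71.1-fold higher, OCIAD2 at least 63.2-fold higher (its other probe differed by 4.98) and NKD2, an inhibitor of Wnt signalling, at least 55.4-fold higher. The secreted protein CYTL1 was detected on all arrays of both lines, and its difference was 6.51 ± 0.43. ATP6V0A1, a subunit of the vacuolar proton pump detected on 1 of 3 U937 arrays, differed by 6.08 ± 0.34. BLMH, a cytosolic cysteine protease, differed by 6.07 ± 0.13. NB4 arrays were the high ones for all of these genes under every treatment.

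The largest fall in NB4 was in ELANE, neutrophil elastase, another azurophil granule protein. ELANE had 5.13, 5.85 and 5.70 in NB4, detected on 2 of the 3 arrays, against 14.67, 14.62 and 14.74 in U937 (difference -9.12 ± 0.18, SE; adjusted p = 1.851e-07). LAMP5, a membrane protein of the lysosome-associated family, was detected on no NB4 array and was at least 203.5-fold lower. TPSB2, a mast cell tryptase whose probe may not be told apart from near-identical tryptase genes, had 6.92, 7.04 and 6.89 in NB4, against 14.58, 14.72 and 14.65 in U937. The tetraspanin CD37, a leukocyte surface protein, was at least 103.6-fold lower. MFNG, a glycosyltransferase that modifies Notch receptors, differed by -7.36 ± 0.21 and was detected on 2 NB4 arrays. TRPM4, a calcium-activated cation channel detected on 1 NB4 array, differed by -6.89 ± 0.37. For TRPM4 the NB4 array with SAHA stood above the other two, at 6.90 against 4.84 and 4.94. The probes of 4 MHC class II genes and CD74 were also among the 15 genes with the largest fall and are described with their group. The remaining members were TMEM163, RENBP, CAB39L and CALHM6, with differences of -6.77, -6.56, -6.45 and -6.29. RENBP and CALHM6 were detected on 1 NB4 array each, and the other probes of CAB39L differed by -3.02 and -2.80. TMEM163 was lower in U937 with SAHA, at 9.78, than in the other U937 arrays, at 12.48 and 12.35, and was detected on no NB4 array.

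**Figure D2:**
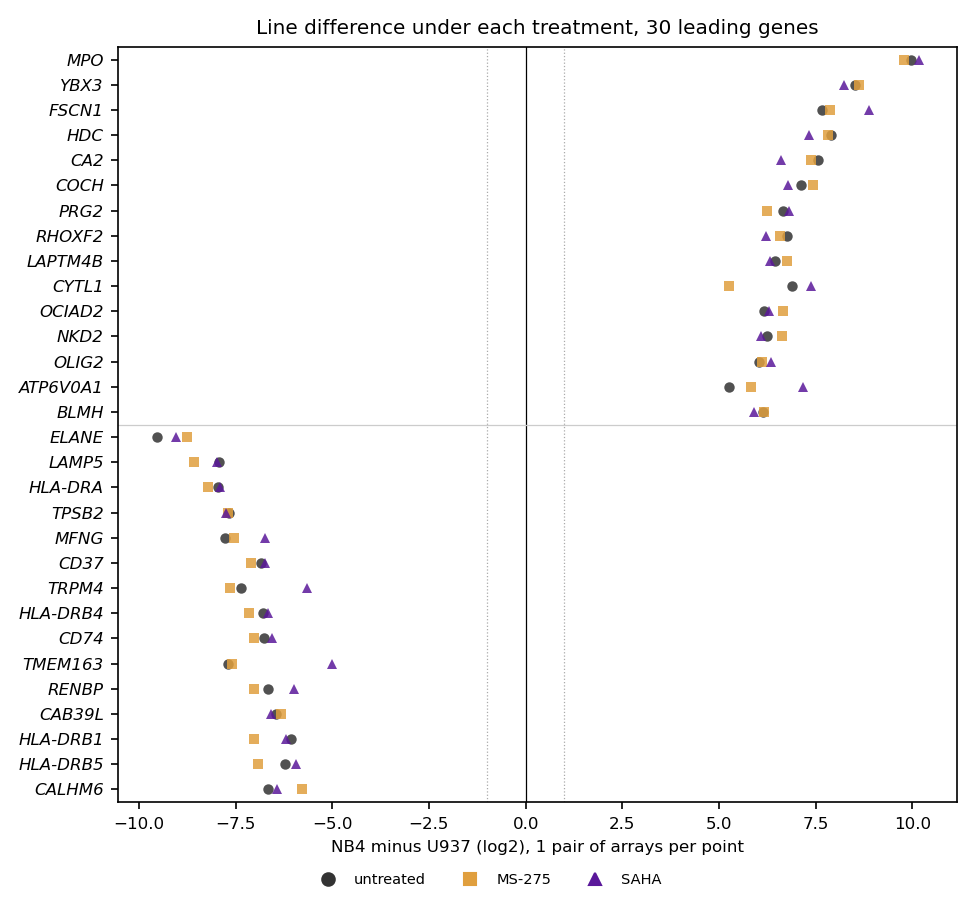
NB4 minus U937 difference on the log2 scale for the 15 leading genes in each direction, with 1 point for each pair of arrays (untreated, MS-275, SAHA). Dotted lines mark differences of 1 and -1, and every point lies beyond them on its gene's side.

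Genes of the azurophil granule list, which also holds eosinophil granule genes, differed in both directions. Of 18 tested genes of this list, 7 were higher in NB4, 9 were lower and 2 were not called (88.9% called, beside 48.2% of all genes). Their median difference was -0.52 beside 0.06 over all genes. Besides MPO, the higher ones included PRSS57, a granule serine protease. They also included PRG2 and EPX, eosinophil peroxidase, which belong to eosinophil and not to azurophil granules. PRSS57 had 11.81, 12.02 and 11.78 in NB4, against 8.32, 9.04 and 8.49 in U937. EPX was detected on no U937 array and was at least 5.30-fold higher in NB4. The lower ones included ELANE, the antimicrobial protein AZU1 (azurocidin) and the bacteriolytic enzyme LYZ (lysozyme). AZU1 had 9.76, 10.34 and 9.82 in NB4, against 13.12, 13.36 and 13.03 in U937, a difference of -3.19 ± 0.13 (SE; adjusted p = 3.355e-06). LYZ had 10.30, 11.34 and 10.36 in NB4, against 13.25, 13.43 and 12.84 in U937. Proteinase 3 (PRTN3) was 3.01-fold lower and cathepsin G (CTSG) 2.87-fold lower in NB4, and both were detected on every array of both lines. CST7, an inhibitor of cysteine proteases, was 5.03-fold lower.

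AZU1, PRTN3 and ELANE are neighbours on chromosome 19, with PRSS57 on one side and CFD, complement factor D, on the other. Along this stretch the NB4 minus U937 difference was 3.25 for PRSS57, 0.27 for PALM, 0.40 for PTBP1 and 2.63 for PLPPR3. It was then -3.19 for AZU1, -1.59 for PRTN3, -9.12 for ELANE and -0.58 for CFD. PALM did not pass the test (adjusted p = 0.2991). The sign of the difference thus changed between the adjacent genes PLPPR3 and AZU1, both called. PALM, PTBP1, PLPPR3 and CFD were named for their position after their values were seen.

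**Figure D3:**
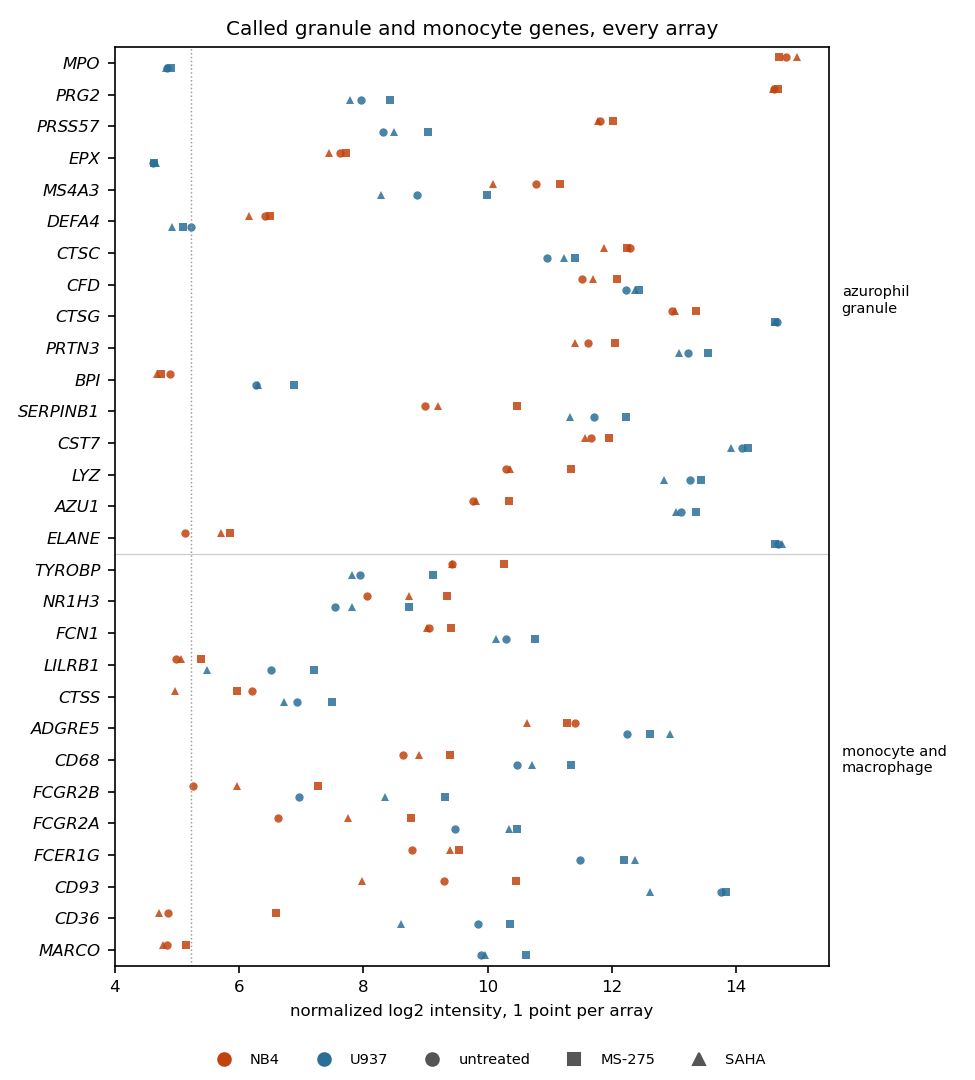
Normalized log2 intensity of the called genes of the azurophil granule and monocyte lists, with 1 point per array, colour for the line and symbol for the treatment. The dotted line at 5.23 is the mean over the 6 arrays of the lowest value among detected probes, and MPO in U937 and MARCO in NB4 lie to its left.

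Later granule and neutrophil genes were few in both lines. Of 26 genes of secondary granules and neutrophil maturation, 11 were tested, 3 were higher and 4 lower in NB4, with a median of -0.80. The share called was 63.6%, beside 48.2% of all genes. MMP9, gelatinase B of the tertiary granules, had 11.99, 12.42 and 11.73 in NB4, against 6.40, 9.38 and 8.02 in U937, and was 17.3-fold higher (adjusted p = 0.000278). CSF3R, the receptor for granulocyte colony-stimulating factor, had 5.52, 6.02 and 5.24 in NB4, detected on 2 arrays, against 7.89, 8.22 and 7.97 in U937. The NB4 and U937 arrays did not overlap for either gene. CAMP, cathelicidin, differed by -1.89 ± 0.64 (adjusted p = 0.04412), and this was no longer called without the untreated arrays (adjusted p = 0.1443) or without the SAHA arrays (0.1496). CAMP and CXCR2 were detected on 1 NB4 array each. CXCR2, a receptor for neutrophil chemokines, differed by -2.24 ± 0.52 and was not called without the untreated arrays (adjusted p = 0.08281).

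Monocyte and macrophage genes were mostly lower in NB4. Of 19 tested genes of this list, 11 fell and 2 rose in NB4, with a median difference of -1.26. The share called was 68.4%, beside 48.2% of all genes. MARCO, a scavenger receptor for bacteria, had 4.84, 5.14 and 4.77 in NB4, against 9.90, 10.61 and 9.96 in U937, and was at least 29.8-fold lower in NB4. The scavenger receptor CD36 had 4.86, 6.59 and 4.71 in NB4, against 9.84, 10.36 and 8.61 in U937 (difference -4.22 ± 0.38, SE; adjusted p = 0.0001336). CD36 was detected on 1 NB4 array, and its other probe differed by -3.80. CD93, a C-type lectin-like receptor of myeloid cells, was 17.8-fold lower in NB4. Signalling adaptors of myeloid receptors diverged. FCER1G, the common gamma chain of Fc receptors, was 6.88-fold lower in NB4, whereas TYROBP (DAP12), an adaptor of other activating myeloid receptors, was 2.66-fold higher. TYROBP had 9.42, 10.27 and 9.42 in NB4, against 7.94, 9.12 and 7.81 in U937. CSF1R, the receptor for macrophage colony-stimulating factor, did not pass the test, at 8.35, 10.75 and 6.70 in NB4, against 8.33, 11.40 and 7.65 in U937 (adjusted p = 0.5737).

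Lysosomal genes were lower in NB4 as well. Of 26 tested cathepsins and lysosomal hydrolases, 18 fell and 3 rose, with a median of -1.21 (80.8% called, beside 48.2% of all genes). CTSD, the aspartic protease cathepsin D, had 10.42, 10.91 and 10.82 in NB4, against 14.47, 14.01 and 14.38 in U937, and was 11.9-fold lower in NB4 (adjusted p = 1.872e-05). The cysteine protease CTSZ was 6.28-fold lower, the beta-galactosidase GLB1 was 5.46-fold lower, and the glycogen-degrading enzyme GAA, detected on no NB4 array, was at least 4.99-fold lower. Opposite to these, CTSW, a protease known from T and NK cells, had 10.50, 11.02 and 10.79 in NB4, against 4.84, 4.74 and 4.94 in U937, and was at least 47.7-fold higher in NB4. CTSL, cathepsin L, was at least 5.24-fold higher by its brightest probe, and its other probe differed by 0.56. The lysosomal membrane protein LAMP1, a list member that was not called, differed by -0.05.

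MHC class II genes formed the group with the lowest median. Of 11 tested genes of this list, 8 fell in NB4, 0 rose and 3 did not pass the test (72.7% called, beside 48.2% of all genes). The median difference was -4.49. HLA-DRA, the alpha chain of HLA-DR, had 4.75, 4.74 and 4.76 in NB4, against 12.71, 12.96 and 12.65 in U937, and was at least 183-fold lower in NB4 (difference -8.02 ± 0.13, SE; adjusted p = 9.322e-08). CD74, the invariant chain that guides class II molecules to endosomes, had 5.64, 5.73 and 5.99 in NB4, against 12.40, 12.75 and 12.56 in U937, and its other probe differed by -2.17. The probes for HLA-DRB1, HLA-DRB4 and HLA-DRB5 gave differences of -6.42, -6.87 and -6.35 and these genes are near-identical paralogs whose probes may detect each other's transcripts. HLA-DMB, which with HLA-DMA loads peptides onto class II molecules, had 5.14, 6.38 and 6.44 in NB4, detected on 2 arrays, against 10.16, 11.85 and 10.88 in U937. HLA-DMA was detected on all NB4 arrays, at 6.16, 8.31 and 7.77, against 12.04, 12.49 and 12.33 in U937. HLA-DPA1 was detected on no NB4 array and was at least 14.6-fold lower.

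The regulators of class II differed less. CIITA had 4.85, 5.00 and 4.92 in NB4, none of them detected, against 5.39, 7.37 and 5.76 in U937. CIITA was called (difference -1.25 ± 0.36, SE; adjusted p = 0.02511) but did not hold, and its U937 array with MS-275 was the highest. The subunits of the RFX complex, which binds class II promoters, did not pass the test. RFX5 differed by -0.24, RFXAP by 0.45 and RFXANK by 0.17, with the other probe of RFXANK at -0.32. HLA-DMA, HLA-DPA1, CIITA and these subunits were named as list members after their values were seen.

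The promoters of 4 class II genes that fell in NB4 are shown because class II promoters are known for shared elements, the X box bound by RFX and the Y box bound by NF-Y. They come from RefSeq on the GRCh38.p14 build and span each gene's annotated start. Capitals mark matches on either strand of CTGATGATG, a run within the X box that was read from these promoters, and of ATTGG, the core of the Y box, which appears as CCAAT where it lies on the other strand.
HLA-DRB1 promoter, chr6:32589799-32590098, minus strand: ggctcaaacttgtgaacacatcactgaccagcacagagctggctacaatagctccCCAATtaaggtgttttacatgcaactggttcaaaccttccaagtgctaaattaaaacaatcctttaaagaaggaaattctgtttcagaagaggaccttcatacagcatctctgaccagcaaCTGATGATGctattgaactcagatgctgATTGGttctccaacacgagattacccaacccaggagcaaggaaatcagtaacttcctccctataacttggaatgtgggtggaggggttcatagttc
HLA-DMA promoter, chr6:32953048-32953347, minus strand: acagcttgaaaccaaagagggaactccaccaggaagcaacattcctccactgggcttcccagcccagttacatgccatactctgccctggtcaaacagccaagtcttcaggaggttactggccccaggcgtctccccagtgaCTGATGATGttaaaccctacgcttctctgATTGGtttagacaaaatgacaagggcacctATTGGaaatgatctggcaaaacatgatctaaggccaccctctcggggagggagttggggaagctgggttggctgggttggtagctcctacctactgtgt
HLA-DMB promoter, chr6:32940979-32941278, minus strand: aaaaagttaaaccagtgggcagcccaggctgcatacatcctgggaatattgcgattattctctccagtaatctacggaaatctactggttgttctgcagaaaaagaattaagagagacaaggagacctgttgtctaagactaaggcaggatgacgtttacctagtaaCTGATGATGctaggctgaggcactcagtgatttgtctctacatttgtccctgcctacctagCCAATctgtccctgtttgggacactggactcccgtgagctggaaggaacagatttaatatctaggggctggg
CD74 promoter, chr5:150412861-150413160, minus strand: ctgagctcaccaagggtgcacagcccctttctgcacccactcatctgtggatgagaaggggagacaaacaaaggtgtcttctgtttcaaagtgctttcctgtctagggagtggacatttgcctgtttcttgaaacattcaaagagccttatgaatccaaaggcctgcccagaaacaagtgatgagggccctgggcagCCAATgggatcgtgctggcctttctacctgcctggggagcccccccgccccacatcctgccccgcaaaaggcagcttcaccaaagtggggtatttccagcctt
CTGATGATG was present in 73 of 27305 promoters of this length (0.267%) and ATTGG in 9747 (35.7%), and 33 (0.121%) held both. Among 10 class II genes looked up, 6 had a promoter in the table, of which 3 held CTGATGATG and 5 held ATTGG. In HLA-DRB1, HLA-DMA and HLA-DMB the run CTGATGATG began at -74, -108 and -83 from the annotated start, and the CD74 window held ATTGG but not CTGATGATG. The match is a description of the letters in these windows.

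**Figure D4:**
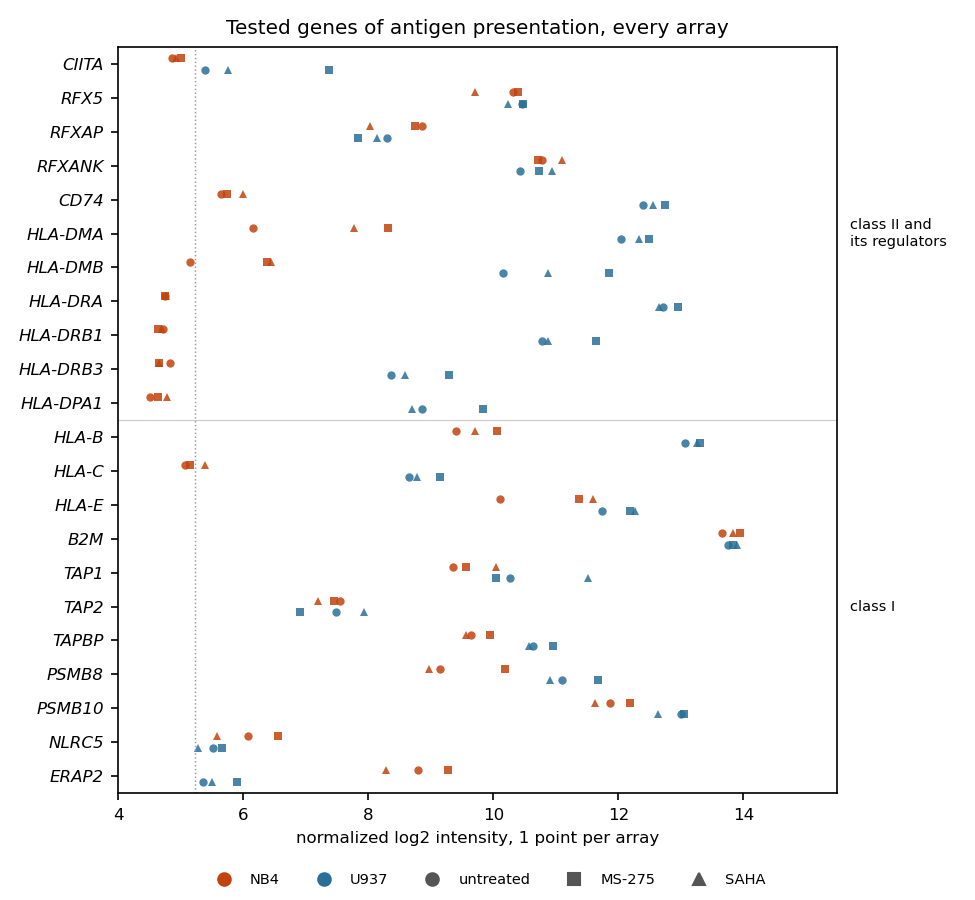
Normalized log2 intensity of the tested genes of MHC class II, its regulators and MHC class I presentation, with 1 point per array, colour for the line and symbol for the treatment. The NB4 points of HLA-DRA lie near 4.75 and its U937 points near 12.71, on either side of the dotted detection line at 5.23, whereas both lines lie together for B2M and RFX5.

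MHC class I genes were lower in NB4 by smaller amounts. Of 11 tested genes of class I presentation, 7 fell and 2 rose in NB4, with a median of -1.003. The share called was 81.8%, beside 48.2% of all genes. HLA-B had 9.40, 10.05 and 9.71 in NB4, against 13.07, 13.31 and 13.26 in U937. HLA-C had 5.06, 5.14 and 5.38 in NB4, detected on 1 array, against 8.65, 9.15 and 8.77 in U937, and the limit on paralogs given for class II holds here too. PSMB8, a protease subunit of the immunoproteasome, was 3.47-fold lower, with its other probe at -1.67. B2M, the light chain of every class I molecule, was not called, at 13.65, 13.94 and 13.84 in NB4, against 13.75, 13.84 and 13.90 in U937. ERAP2, which trims peptides in the endoplasmic reticulum, rose in NB4, with 8.80, 9.28 and 8.28 against 5.36, 5.90 and 5.50 in U937 (difference 3.20 ± 0.17, SE; adjusted p = 1.426e-05). TAP2, a subunit of the peptide transporter, differed by -0.05, with its other probe at -0.29, and was not called.

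Among myeloid and haematopoietic transcription factors, 4 of 41 tested genes were higher in NB4, 14 were lower and 23 were not called. The median was -0.55, and 43.9% were called, beside 48.2% of all genes. CEBPD, a C/EBP factor of granulocytes and acute-phase responses, had 11.70, 9.76 and 7.67 in NB4, against 4.70, 4.64 and 4.60 in U937, where it was not detected. CEBPD was at least 22.9-fold higher in NB4 (adjusted p = 0.0007625), and within NB4 the untreated array was the highest and the array with SAHA the lowest. CEBPB and CEBPA, of the same family, were lower in NB4, and CEBPE differed by -0.41 and was not called. CEBPB, a factor of monocytes, had 10.01, 12.16 and 10.72 in NB4, against 12.34, 13.34 and 12.95 in U937. CEBPA, required for granulocyte commitment, had 11.49, 11.20 and 10.36 in NB4, against 13.30, 13.20 and 12.98 in U937 (difference -2.14 ± 0.60, SE; adjusted p = 0.02179). The CEBPA call was lost without the MS-275 arrays (adjusted p = 0.05262) or without the SAHA arrays (0.118), although the lines did not overlap. GATA2, a factor of progenitors and mast cells, was at least 4.51-fold higher in NB4 and stood at 8.51, 7.58 and 6.01 there.

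IRF5, an interferon regulatory factor of monocytes, had 4.85, 5.25 and 4.87 in NB4, detected on 1 array, against 7.71, 7.75 and 6.36 in U937. ID1, an inhibitor of helix-loop-helix factors, differed by -2.88 ± 0.46 and was detected on 2 NB4 arrays. WT1, a zinc-finger factor often present in acute leukaemia, had 9.75, 8.25 and 6.24 in NB4, against 5.07, 6.21 and 5.32 in U937, detected on 2 arrays, and was not called without the MS-275 arrays (adjusted p = 0.05813). The master factor SPI1 (PU.1), a list member that was not called, had 10.12, 9.86 and 8.59 in NB4, against 10.59, 10.76 and 8.35 in U937. GFI1, a transcriptional repressor that acts in granulocyte development, differed by -1.72 and was not called (adjusted p = 0.07048). SPI1, GFI1 and CEBPE were chosen after their values were seen.

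Among the tested HOX genes and their cofactors, MEIS1 showed the largest difference. Of the 37 genes listed, 26 had a probe, and HOXA2 was the only HOXA gene among these. The rest of the HOXA cluster was therefore not compared between the lines. Of 17 tested genes, 4 were higher and 4 lower in NB4, with a median of 0.10 (47.1% called, near the 48.2% of all genes). MEIS1, the HOX cofactor whose level sustains many leukaemias, had 5.05, 4.87 and 5.11 in NB4, none detected, against 8.81, 8.27 and 9.48 in U937, and was at least 12.1-fold lower in NB4 (adjusted p = 8.757e-05). HOXC4 was 3.26-fold lower in NB4. MLLT10, the partner of PICALM in the fusion that U937 is known to carry, was 2.32-fold lower in NB4, at 7.69, 7.45 and 7.16 against 8.82, 8.73 and 8.39 in U937. PICALM itself differed by 0.91 ± 0.30 (adjusted p = 0.04155) and was not called without the untreated arrays (adjusted p = 0.2014) or without the MS-275 arrays (0.101), and its other probe differed by 0.28.

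The retinoid list held RARA, part of the fusion that NB4 is known to carry. Of 15 tested genes, 3 were higher and 5 lower in NB4, with a median of -0.08 (53.3% called, beside 48.2% of all genes). RARA had 10.53, 10.43 and 10.61 in NB4, against 9.88, 10.02 and 9.74 in U937, a difference of 0.64 ± 0.14 (SE; adjusted p = 0.007357). RARA was not called without the untreated arrays (adjusted p = 0.06788) or without the SAHA arrays (0.05261). The retinoic acid hydroxylase CYP26B1 was detected only on the NB4 arrays of this pair of lines and was at least 2.64-fold higher. DHRS3, which reduces retinal, had 4.72, 6.75 and 4.81 in NB4, detected on 1 array, against 6.91, 9.91 and 6.88 in U937, and ALDH1A1, which oxidizes retinal, was at least 3.50-fold lower in NB4. PML, named as the partner of RARA after its values were seen, differed by -0.08, with its other probes at 0.11 and 0.08, and was not called.

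Coagulation genes were mostly lower in NB4, with tissue factor as an exception. Of 13 tested genes, 8 fell and 2 rose, with a median of -1.27 (76.9% called, beside 48.2% of all genes). F3, tissue factor, which starts the extrinsic pathway, had 8.08, 8.10 and 7.60 in NB4, against 5.03, 5.45 and 5.53 in U937, detected on 2 arrays (difference 2.58 ± 0.19, SE; adjusted p = 5.004e-05). THBS1, thrombospondin, was at least 3.93-fold higher. Among anticoagulant genes, PROS1, protein S, had 4.75, 4.75 and 4.67 in NB4, against 8.91, 8.88 and 8.70 in U937, and was at least 11.9-fold lower. PROCR, the receptor for protein C, had 5.37, 7.54 and 7.29 in NB4, against 9.63, 10.18 and 9.95 in U937. The fibrin cross-linking factor F13A1 was at least 4.03-fold lower. The urokinase receptor PLAUR, a list member that was not called, differed by -0.24, and its other probe by -0.95.

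Cytokine receptors, chemokines and sensors of infection were more often lower than higher in NB4. Of 29 tested receptors, 13 fell and 5 rose (62.1% called, beside 48.2% of all genes). IL13RA1, a subunit of the interleukin-4 and interleukin-13 receptors, was 7.18-fold higher in NB4, at 8.18, 8.73 and 8.72 against 5.72, 6.00 and 5.38 in U937. IL6R, the interleukin-6 receptor, and TGFBR1, a TGF-beta receptor, were 5.24-fold and 4.42-fold lower, with the other probe of IL6R at -2.04. Of 22 tested chemokine genes and chemoattractant receptors, 10 fell and 2 rose (54.5% called, beside 48.2% of all genes). CCL2, which attracts monocytes, had 6.17, 7.81 and 4.99 in NB4, detected on 2 arrays, against 9.75, 12.85 and 8.25 in U937, and its array with MS-275 was the highest in both lines. CCL23 was 22.3-fold lower in NB4, with its other probe at -3.95, and CXCL16, a membrane-bound chemokine, was 12.1-fold lower. CCR7, the receptor that guides cells to lymph nodes, had 6.42, 9.81 and 8.81 in NB4, against 4.65, 5.55 and 5.08 in U937, where it was detected on 1 array. The median of the chemokine list was -0.34 in untreated cells, -2.08 with MS-275 and -0.68 with SAHA.

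Of 26 tested innate sensors, 11 fell and 4 rose in NB4, with a median of -0.82 (57.7% called, beside 48.2% of all genes). CLEC12A, an inhibitory myeloid lectin, had 4.76, 6.89 and 4.92 in NB4, detected on 1 array, against 9.47, 10.07 and 9.79 in U937. MYD88, the adaptor of Toll-like receptors, was 4.85-fold lower in NB4. RIGI, a sensor of viral RNA, was 1.90-fold higher, at 6.41, 6.20 and 6.10 in NB4 against 5.37, 5.26 and 5.31 in U937. Of 24 tested interferon-stimulated genes, 12 fell and 4 rose, with a median of -0.80 (66.7% called). IFITM1, which restricts virus entry, had 10.45, 11.16 and 10.82 in NB4, against 6.92, 7.22 and 6.90 in U937, and was 13.9-fold higher in NB4. IFI35 was 3.85-fold lower, and OAS3, an antiviral synthetase detected on no NB4 array, was at least 2.53-fold lower. GBP2, a guanylate-binding GTPase detected on 2 U937 arrays, differed by 3.02 ± 0.23. The interferon-stimulated genes therefore did not go one way in these lines.

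Genes of inflammatory mediators also split. Of 14 tested genes of eicosanoid metabolism, 4 rose and 6 fell in NB4 (71.4% called, beside 48.2% of all genes). ALOX5, the 5-lipoxygenase, had 6.62, 8.96 and 7.74 in NB4, against 5.61, 6.48 and 5.53 in U937. ALOX5AP, the protein that presents substrate to it, had 7.52, 10.02 and 8.97 in NB4, against 12.74, 13.75 and 13.30 in U937, and was 21.5-fold lower in NB4 (adjusted p = 0.0001454). For ALOX5 the U937 array with MS-275, at 6.48, lay just under the untreated NB4 array, whereas for ALOX5AP the lines were far apart. PTGS1, cyclooxygenase 1, was 11.6-fold lower, with its other probe at -2.40. Of 7 tested NADPH oxidase genes, 2 rose and 4 fell (85.7% called). CYBB, the catalytic subunit, had 8.96, 9.40 and 7.52 in NB4, against 6.02, 8.36 and 5.70 in U937, so the groups overlapped. CYBB was not called without the untreated arrays (adjusted p = 0.08471). The cytosolic subunit NCF4 differed by -1.97 by its brightest probe and by -0.54 by the other.

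S100 proteins and annexins had 0 genes higher in NB4 and 9 lower of 14 tested, with a median of -0.94. The share called was 64.3%, beside 48.2% of all genes. S100P, a calcium-binding protein of myeloid and epithelial cells, had 10.00, 10.81 and 10.39 in NB4, against 12.92, 13.51 and 13.58 in U937, and was 7.67-fold lower in NB4 (adjusted p = 1.185e-05). S100A6 was 7.46-fold lower and S100A4 3.47-fold lower, with the other probe of S100A4 at -1.84. S100A8, a subunit of calprotectin, had 5.59, 6.81 and 5.05 in NB4, detected on 2 arrays, against 6.79, 10.33 and 6.80 in U937, and lost its call without the SAHA arrays (adjusted p = 0.05844).

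Surface and adhesion molecules differed in both directions. Of 28 tested surface markers of leukaemia cells, 8 rose and 12 fell in NB4 (71.4% called, beside 48.2% of all genes). CD81, a tetraspanin, had 13.97, 13.88 and 14.47 in NB4, against 8.63, 9.20 and 7.31 in U937, and was 53.03-fold higher. Its fellow tetraspanin CD37 was among the genes with the largest fall. ANPEP (CD13), an aminopeptidase of myeloid cells, was 4.39-fold higher in NB4, CD70, a ligand of the TNF family, was 6.33-fold higher and NCAM1 (CD56) differed by 2.51 by its brightest probe and by 1.11 by the other. ENG, endoglin, had 4.72, 4.75 and 4.80 in NB4, against 9.93, 9.81 and 9.04 in U937. SIRPA, the receptor for the signal carried by CD47, was 7.86-fold lower in NB4. Of 23 tested adhesion genes, 5 rose and 5 fell (43.5% called), a share near that of all genes. ALCAM was 6.74-fold higher and ICAM3 4.94-fold higher in NB4, while the integrin chains ITGA5 and ITGB2 were 3.75-fold and 3.00-fold lower. ITGAL, another integrin chain, differed by -2.52 and was detected on 1 NB4 array.

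At chromosome 9p21, MTAP and CDKN2A read at background in NB4. MTAP, a salvage enzyme of methionine and adenine, had 4.54, 4.67 and 4.60 in NB4, against 9.11, 8.84 and 8.94 in U937, and was at least 13.04-fold lower in NB4 (adjusted p = 8.753e-07). CDKN2A, which encodes the cell cycle inhibitors p16 and p14ARF, had 4.59, 4.57 and 4.52 in NB4, against 8.48, 9.01 and 8.49 in U937, and its other probe differed by -3.34. Both genes were detected on 0 of 3 K562 arrays. Genes further out differed in both directions. On one side FOCAD differed by 2.36, HACD4 by 0.12 and KLHL9 by 1.86, and on the other CAAP1 differed by -0.67, PLAA by -0.59, IFT74 by 1.39 and MOB3B by -0.98. CAAP1 was detected on 1 NB4 array and MOB3B on 0, and the other probe of PLAA differed by 1.11, opposite to its brightest probe. MOB3B was not called without the untreated arrays (adjusted p = 0.06062) or without the MS-275 arrays (0.1845). Its pair differences were -0.95, -0.99 and -0.99, and K562, which is part of the fitted spread, had 7.45, 6.70 and 5.62. FOCAD and KLHL9 were detected on 3 of 3 NB4 arrays and on 0 K562 arrays. The genes between KLHL9 and MTAP and those between CDKN2A and CAAP1 were not tested. CAAP1 was not called without the MS-275 arrays (adjusted p = 0.05088) or without the SAHA arrays (0.08835).

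The other cell cycle inhibitors and p53 pathway genes were closer to each other. Of 21 tested genes, 4 rose and 4 fell in NB4, with a median of 0.10 (38.1% called, beside 48.2% of all genes). CDKN1C (p57) had 6.14, 8.68 and 8.12 in NB4, against 5.16, 5.01 and 5.79 in U937, detected on 1 array. CDKN1A (p21), a gene known to rise with HDAC inhibitors, had 8.42, 11.57 and 11.31 in NB4, against 8.85, 12.63 and 13.07 in U937. Its line difference of -1.08 ± 0.30 (adjusted p = 0.02089) lost its call without the MS-275 arrays (adjusted p = 0.1066) or without the SAHA arrays (0.1004). MYC was not called, at 13.14, 10.66 and 9.67 in NB4, against 12.92, 10.68 and 9.14 in U937, and was named as a regulator of its list after its values were seen.

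DNA replication genes were more often higher in NB4. Of 35 tested, 15 rose and 3 fell, and the median was 0.28 (51.4% called, beside 48.2% of all genes). LIG1, the replicative DNA ligase, had 10.80, 10.95 and 10.64 in NB4, against 8.86, 8.76 and 8.74 in U937, and was 4.04-fold higher in NB4 (adjusted p = 2.949e-05). CDC45, a helicase component, was 2.83-fold higher, and RFC5, of the clamp loader, was 2.72-fold higher. The sliding clamp PCNA differed by -0.52 by its brightest probe and by 0.75 and -0.31 by its other probes, so its direction depended on the probe. The PCNA call was lost without the MS-275 arrays (adjusted p = 0.1331) or without the SAHA arrays (0.1416). Of 25 tested MYC targets and ribosome biogenesis genes, 10 rose and 3 fell (52% called, beside 48.2% of all genes). PPAN, a nucleolar factor, led those that rose and had 11.72, 10.08 and 9.90 in NB4, against 10.01, 8.46 and 7.92 in U937. Nucleolin (NCL) was 2.59-fold higher. Of 13 reference genes 6 rose and 1 fell, with a median of 0.08 (53.8% called, beside 48.2% of all genes). SDHA was 2.78-fold and PPIA 2.50-fold higher in NB4.

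Among the genes of histone deacetylases and corepressors, only HDAC4 held under all 3 treatments. Of 21 tested histone deacetylases and corepressors, 5 rose, 2 fell and 14 were not called (33.3% called, beside 48.2% of all genes). HDAC4, a class IIa deacetylase, had 7.49, 7.41 and 7.08 in NB4, against 4.68, 4.64 and 4.60 in U937, and was at least 4.38-fold higher (adjusted p = 1.17e-05). The class I enzymes were not called, with differences of -0.04 for HDAC1, -0.44 for HDAC2, 0.18 for HDAC3 and -0.05 for HDAC8. HDAC6, a cytoplasmic deacetylase that SAHA inhibits, differed by -0.84 ± 0.18 and was not called without the untreated arrays (adjusted p = 0.05845). Of 19 tested genes from a list of classic HDAC inhibitor response genes, 3 were higher and 5 lower in NB4 (42.1% called). CRIP1, a LIM domain protein, had 5.47, 6.74 and 7.73 in NB4, against 12.09, 11.97 and 12.34 in U937, and was 44.9-fold lower in NB4. The median of that list was 0.12 over the 3 treatments but -0.43 in untreated cells, -0.08 with MS-275 and -0.11 with SAHA.

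Genes of the BCL2 family and death receptors showed 5 genes higher and 7 lower of 26 tested, with a median of -0.06. The share called was 46.2%, near the 48.2% of all genes. BCL2L1, which encodes the survival protein BCL-XL, had 9.78, 9.45 and 8.38 in NB4, against 11.19, 11.51 and 10.18 in U937, and was 3.38-fold lower in NB4 (adjusted p = 0.0002944), with its other probe at -1.70. BID, which links death receptors to mitochondria, was 3.23-fold lower. BIRC5, survivin, was 1.89-fold higher, at 6.84, 6.79 and 6.88 in NB4 against 6.24, 5.83 and 5.69 in U937.

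Markers of other cell types were read for what the lines might hold beyond their own lineage. In NB4, 0 of 4 tested erythroid markers rose and 1 fell, 2 of 6 megakaryocyte markers rose and 0 fell, and 4 of 9 T and NK markers rose and 1 fell. Of 5 tested B cell markers 1 rose and 2 fell, and of 7 epithelial and stromal markers 5 rose and 1 fell. The shares called were 25% (erythroid), 33.3% (megakaryocyte), 55.6% (T and NK), 60% (B cell) and 85.7% (epithelial and stromal). Over all genes the share was 48.2%, and these lists are small. The globin genes HBG1 and HBG2 were detected on 0 NB4 arrays, and HBG2, which shares nearly all its sequence with HBG1, was low in U937, at 5.61, 6.44 and 5.38. ITGA2B, the platelet integrin chain, had 9.57, 10.25 and 9.91 in NB4, against 5.35, 5.82 and 5.39 in U937, and was 20.9-fold higher, whereas PF4 and GP9 were detected on 0 arrays of either line. Among lymphocyte genes, perforin (PRF1) was 11.6-fold higher in NB4 and NKG7, a granule protein of killer cells, 6.78-fold lower, while CD3D, CD3E and GNLY were detected on no array of either line. CD3G and CD8A were detected on 3 NB4 arrays and on 0 U937 arrays, with differences of 1.67 and 1.86. CD79A, a chain of the B cell receptor, differed by -2.29 by its brightest probe and by -0.95 by the other, and CD79B by 1.502 and 2.50, with MS4A1 and PAX5 detected on no array. EPCAM, an epithelial adhesion molecule, had 8.76, 9.15 and 7.92 in NB4, against 4.87, 4.85 and 4.89 in U937, and KRT18, an epithelial keratin, had 9.59, 10.15 and 9.59 in NB4, against 4.94, 4.94 and 4.98 in U937. The other probes of KRT18 differed by 1.19 and 0.53. KRT8 and KRT19 were detected on 0 arrays of either line. The summed intensity of the 8 epithelial and stromal markers was 1280 to 2280 in NB4 and 595 to 1570 in U937. That of the 5 megakaryocyte markers was 1350 to 1910 in NB4 and 600 to 645 in U937. This gap came from ITGA2B, since PPBP and GP1BA differed by 0.29 and 0.07 and were not called. The sum of the 7 T and NK markers went the other way, at 1300 to 2340 in NB4 and 8260 to 9270 in U937. It was mostly NKG7, with a mean log2 intensity of 10.26 in NB4 and 13.03 in U937. It is thus not a shift of these markers as a group. K562 had mean log2 intensities of 9.73 for EPCAM, 12.92 for KRT18 and 10.39 for ITGA2B, so these genes were not particular to NB4.

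**Figure D5:**
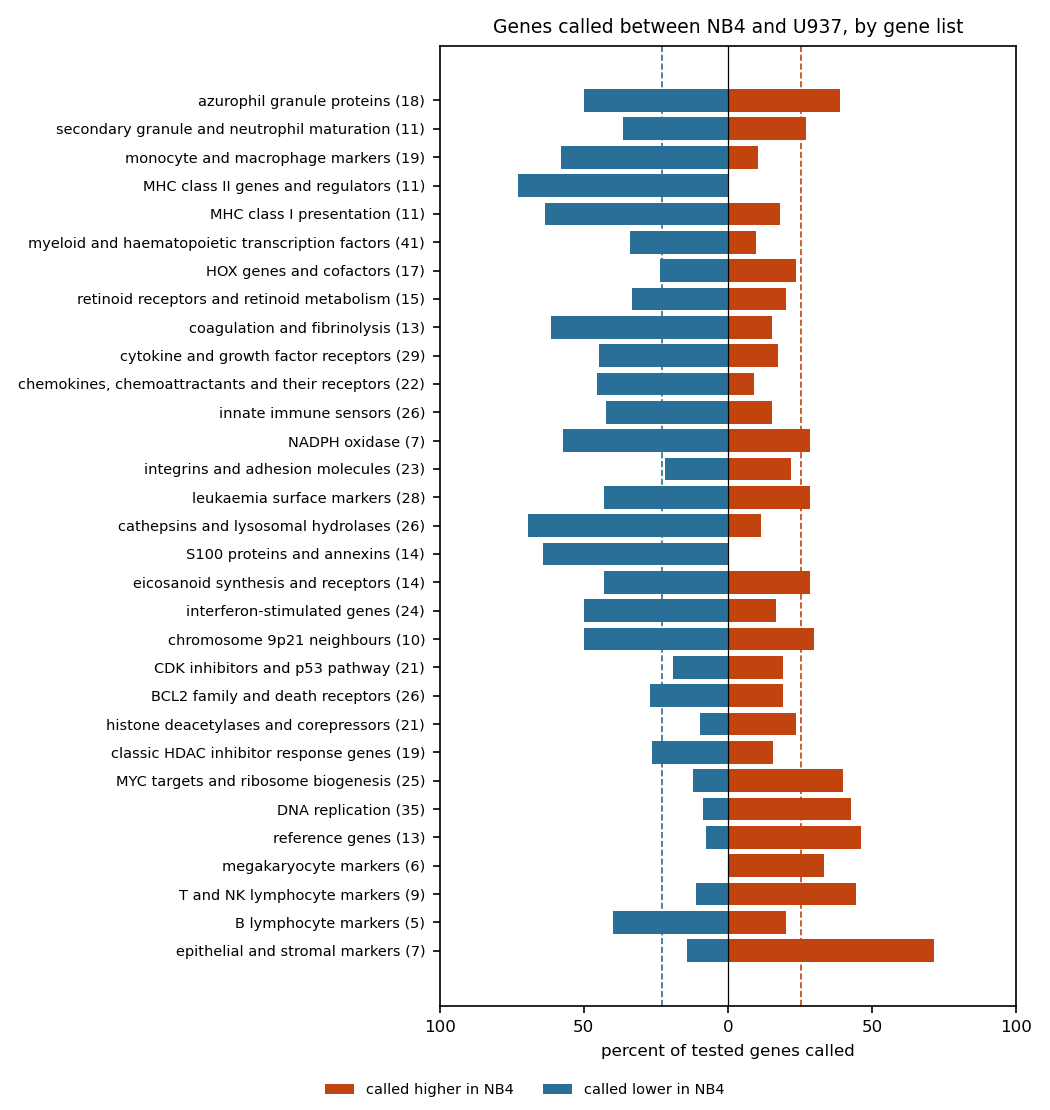
Percent of the tested genes of each list that were called higher (right) or lower (left) in NB4, for the 31 lists with at least 5 tested genes, with the number tested in brackets. Dashed lines are the shares over all genes, 25.3% higher and 22.9% lower.

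Over the 31 lists with at least 5 tested genes, 21 had more genes lower than higher in NB4, 7 had more higher and 3 had equal numbers. The lists farthest to the lower side of the 22.9% of all genes were MHC class II, with 8 of 11, and cathepsins and lysosomal hydrolases, with 18 of 26. Lists above the 25.3% of all genes on the higher side included epithelial and stromal markers, with 5 of 7, and reference genes, with 6 of 13. Others were T and NK markers, with 4 of 9, DNA replication, with 15 of 35, and MYC targets, with 10 of 25. The share of DNA replication genes was thus not above that of reference genes.

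The genes that held were spread unevenly over chromosomes. Chromosome 12 had a median difference of 0.46, and 90 of its 589 tested genes (15.3%) held higher in NB4, beside 6.96% of all genes. On chromosome 5 the share was 13.9%, with a median of 0.31. Chromosome 19 had a median of -0.29, and 117 of its 769 genes (15.2%) held lower in NB4, beside 8.44% of all genes. On chromosome 8 that share was 14.6%, with a median of -0.26. On chromosome 6, which carries the MHC, 12% held lower, with a median of 0.00. These chromosomes were picked after their values were seen, and no test was run on them.

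K562, the erythroleukaemia line, lay nearer NB4 for 330 of the 727 genes that held higher in NB4, and nearer NB4 for 577 of the 882 that held lower.

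The line differences were also compared between treated and untreated cells. In limma, 0 of 10446 genes (0%) changed differently with an inhibitor in NB4 and in U937 at an adjusted p under 0.05, and 140 did so at an unadjusted p under 0.05. The fit had 3 residual degrees of freedom, and its spread was the difference between MS-275 and SAHA within each line. Genes that miss the threshold are therefore not shown to respond alike in the lines. Among the genes that held, the range of the difference over the 3 treatments had a median of 0.63, beside 0.50 over all genes. This range was under 1 for 1184 of the 1609 genes and over 2 for 86. The smallest unadjusted p was that of ANGPTL4, an inhibitor of lipoprotein lipase, which had 4.73, 9.77 and 9.41 in NB4, detected on 2 arrays, against 4.78, 5.37 and 4.83 in U937, detected on 1. Its inhibitor response exceeded that of U937 by 4.55 ± 0.49 in NB4 in the limma fit (SE; adjusted p = 1). The adhesion molecule ICAM1 had 5.48, 7.41 and 7.66 in NB4, against 6.80, 6.47 and 6.68 in U937, and the cytokine TNF had 11.66, 10.31 and 10.66 in NB4, against 8.21, 9.56 and 9.32 in U937. The kinase PIM1 was low in untreated NB4 cells, with 7.89, 10.45 and 10.96 in NB4, against 11.97, 11.84 and 11.96 in U937. These 4 genes were chosen after their values were seen.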

How the data were processed

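Biotin-labelled cRNA from total RNA was read on Illumina bead arrays, with 1 array for each line and treatment, per the labels. The intensity table that the authors deposited was neither background-corrected nor normalized, as the values show, with array medians of 126 to 139 in NB4 and 104 to 106 in U937, and a detection p-value beside each intensity, which the authors deposited as well. The log2 values they also deposited, for which the submitters' processing notes name lumi, equalled the quantile-normalized log2 intensities within 0.001 for all 199593 values. Each of the 22177 probes was matched between the tables, which use different identifiers, by its ranks on the 9 arrays. The platform annotation gave 1 symbol for 19708 probes, several for 0 and none for 2469.

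Intensities were background-corrected with the nec function of limma 3.58.1 in R 4.3.3 (offset 16), followed by quantile normalization and a log2 transform. Probes entered if detected (detection p-value under 0.05) on 3 or more of the 6 NB4 and U937 arrays, and the brightest of a gene's probes stood for it (11654 probes, 10446 genes, 1021 of them with more than 1 probe). Where a named gene had other tested probes, their differences stand beside its value. For 73 called genes another probe had the opposite sign, 11 of which held. The fit had line and treatment as terms over all 9 arrays with 4 residual degrees of freedom, and two-sided p-values of NB4 minus U937 were adjusted by Benjamini-Hochberg over all genes. A second fit had the interaction of line with inhibitor, with 3 residual degrees of freedom. It pooled the inhibitors as treated, so its residual was the difference between them within a line. The fits were tested on simulated data.

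Named genes were the 15 with the largest difference each way among those called, of 1 sign under all treatments and detected on every array of the line where they were higher, up to 4 called genes each way in each of 32 gene lists, and cell type markers. The members and lists were chosen with earlier results of these data known. Genes outside these rules are named in the text as such, or as list members with a value for contrast. XIST and genes on chromosome Y were not named, but no gene was left out of the fits or counts by its chromosome. The lists covered granules, neutrophil maturation, monocytes, MHC, transcription factors, HOX, retinoids, coagulation, receptors, chemokines, innate sensors, NADPH oxidase, adhesion, surface markers, lysosomes, S100 proteins and annexins, eicosanoids, interferon, 9p21, CDK inhibitors and p53, BCL2, HDACs and their response genes, MYC, replication, reference genes and 5 other lineages. Promoters and gene order came from RefSeq tables. Alternatives covered background correction, scaling, filters, probe choice, the arrays fitted, the prior variance and the treatment term, and leaving out each treatment.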

Additional observations from a re-analysis of the deposited data

How the results depend on the processing

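The count of genes called between NB4 and U937 was 5038 and lay within 1.5 times of that under every alternative but the fit without a treatment term, which gave 2775. The count of genes that held was 1609 and fell to 1049 on the log2 values without background correction and to 1027 with the probes detected on all 6 arrays, where 8406 genes were tested in place of 10446. Of the 1049, 1047 also held with background correction. Leaving out the arrays of 1 treatment gave 3407 to 4174 genes called and 1744 to 2082 held, the held rule then covering fewer pairs. The count of genes whose difference changed with inhibitor was 0 under each alternative run, with 73 to 341 genes at an unadjusted p under 0.05. All these fits take their spread from the difference between the inhibitors and have few degrees of freedom. The repeated 0 therefore does not show that the lines respond alike. For that count the planned fits without the MS-275 or the SAHA arrays were not run, since they leave no residual degrees of freedom. The fits without the untreated arrays or without a treatment term do not hold the contrast. Over 11 alternatives the 233 named genes gave 2477 values, of which 2289 kept their direction and their side of the threshold, 187 lost the call, 1 gained it and 0 turned round. The gain was EPOR without K562 (adjusted p = 0.01873). The lines were paired by treatment in the main fit, and the fit without a treatment term is its unpaired counterpart. By replicate number, no paired analysis was possible because the labels number every array as replicate 1. Probes near the negative controls limit the size of folds where 1 line was not detected, and other causes of the shifts between settings were not tested.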
